A study of Sus scrofa with 23 samples.

Results

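Described here are the transcripts that changed in the same direction between the 4-cell and 8-cell stages in 2 groups of porcine embryos made by somatic cell nuclear transfer, NT-D from Duroc and NT-LW from Laiwu donors. A gene was taken as higher (it rose) or lower (it fell) at the 8-cell stage when log2 of its FPKM value plus 1 differed by more than 1 between the 8-cell and the 4-cell library of a group and one or both of these libraries held the gene at an FPKM value of 1 or more. FPKM is the number of sequenced fragments per kilobase of gene and per 1000000 fragments of the library. Of the 8603 genes in the deposited table, 7682 reached that level in both clone groups, 1886 of these rose in both and 1729 fell in both. The members were therefore 3615 genes.

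In the first cleavages an embryo lives on RNA and protein stored in the oocyte, because its own genome is silent. Stored messages are then removed while the embryonic genome is switched on, and in the pig the main wave of this activation falls around the 4-cell stage, with its products accumulating towards the 8-cell stage. In a cloned embryo the genome that has to be switched on is that of a differentiated cell, which the oocyte cytoplasm must first reset.

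The NT-D and NT-LW embryos carried the nuclei of ear fibroblasts from a 1-year-old Duroc boar and a 1-year-old Laiwu boar, placed into enucleated oocytes of hybrid sows, taken from slaughterhouse ovaries and matured in vitro, and were cultured in PZM3 medium at low oxygen. Each clone group thus rests on the cells of 1 animal and all of its embryos were male by nucleus. The IV-D embryos, used here for contrast, were conceived in Duroc sows by insemination with the same Duroc boar, flushed from the tract and pooled without regard to sex, so that nuclear transfer, oocyte breed and maturation, culture and sex cannot be told apart as sources of a difference from the clones. Each library was made from a pool (about 5 to 10 embryos for clones), and there was 1 library per condition, 23 in all, so that no value has an error between libraries of a condition. A test of stage that takes the groups as replicates of each other was not run, and no p-value is given.

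The 6 libraries of the step held 15028088 to 20549009 fragments, of which the genes of the table took 83.0% to 95.3%. Whole fragments could be recovered from the table for 100% of its genes, and the intervals given with folds are 95% exact binomial intervals on these fragments. They cover counting error alone. By its name the table holds differentially expressed genes of the series, so that shares of its genes are not shares of all genes. A count of 0 allows up to 3 fragments, an FPKM value of 0.146 to 0.200 on a gene of 1 kb. FPKM values are shares of a library primed on poly(A), so a loss of RNA, a shortened poly(A) tail and a rise of all other messages cannot be told apart.

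The same genes moved in both clone groups to a large extent. In NT-D embryos 2455 genes rose (31.4% of 7830 compared) and 2244 fell (28.7%). In NT-LW embryos 2205 rose (28.1% of 7848) and 2012 fell (25.6%). The 1886 genes that rose in both were 24.6% of the 7682 genes compared in both groups, and they made up 76.8% of the NT-D rises and 85.5% of the NT-LW rises. The 1729 that fell in both were 22.5%, being 77.05% of the NT-D and 85.9% of the NT-LW falls. Opposite calls were made for 8 genes, a count that was 26 with a pseudocount of 0.1, 19 with libraries rescaled to the same sum and 41 by an exact binomial test between libraries. The balance of rises and falls also rests on the scaling: rescaled libraries gave 1686 rises and 2274 falls in both groups, and median-ratio factors 1785 and 1825. The remaining 1670 calls were made in 1 group alone, and in 1530 of these (91.6%) the other group differed in the same direction without passing the limit. Across the 7682 genes Pearson's r between the 2 steps was 0.918, as a description, since genes are not independent replicates. The steps were somewhat longer in NT-D: of the 3615 members, 2370 (65.6%) had the larger difference there, and the median member had a log2 difference of 2.11 (NT-D) and 1.94 (NT-LW) among risers and of -2.02 and -1.76 among fallers.

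**Figure D1:**
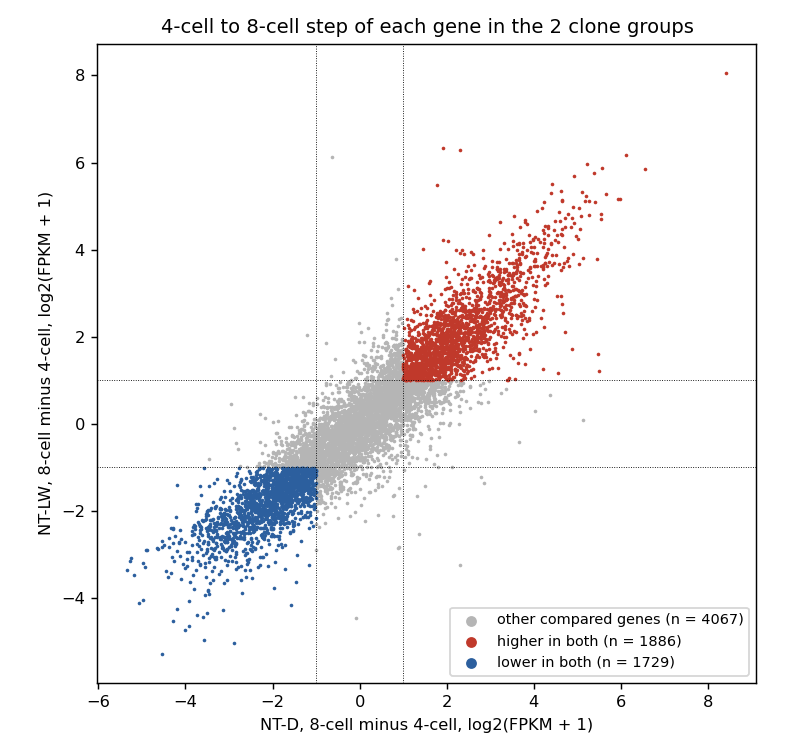
Each point is 1 of the 7682 compared genes, placed by its 8-cell minus 4-cell difference of log2(FPKM + 1) in NT-D (horizontal axis) and NT-LW embryos (vertical axis), with dotted lines at the limits of 1 and -1. The 1886 genes higher in both fill the upper right corner and the 1729 lower in both the lower left, and the corners of opposite sign hold 8 genes.

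In terms of RNA the 2 sets traded places. Genes that rose in both took 6.67% of all fragments in the NT-D 4-cell library and 36.1% in the 8-cell library, and 8.14% and 35.9% in NT-LW. Genes that fell in both went from 31.4% to 5.73% in NT-D and from 28.99% to 7.06% in NT-LW. In the IV-D libraries, on which the members were not chosen, the same 2 sets went from 9.86% to 42.01% and from 28.6% to 5.05%.

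The members shade into the genes left out. SLC30A1 was the riser nearest the limit, with log2 differences of 1.33 in NT-D and 1.001 in NT-LW, and OCEL1 the nearest faller, with -1.003 in NT-D and -1.08 in NT-LW. ZNF7, at 1.027 and 0.999, and AHSA1, at -0.99974 and -2.293, lay just outside it. The limit of 2 on the log2 scale was passed in both groups by 734 risers and 515 fallers, and the limit of 4 by 65 and 6, so the strongest rises went further than the strongest falls.

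Genes were ranked by the smaller of their 2 clone differences. Values given for genes are FPKM, and a pair of values is that of NT-D and then NT-LW. The first riser was SULT1E1 (chromosome 8), the sulfotransferase that inactivates oestrogens. It had 0 fragments in the NT-D and 6 in the NT-LW 4-cell library, and FPKM values of 342 and 287 at the 8-cell stage, a level at least 6468-fold higher in NT-D, set against the 3 fragments that a count of 0 allows, and 3461-fold higher (1589.998 to 9433) in NT-LW. In IV-D embryos it went from 0.1002 to 1473. The message was thus nearly absent from every 4-cell library and among the abundant ones in every 8-cell library.

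Several of the next risers serve the mitochondrion. UQCR11, a small subunit of respiratory complex III, went from 3.87 and 4.33 in the NT-D and NT-LW 4-cell libraries to 229 and 312 in the 8-cell libraries, 59.3-fold higher (42.1 to 86.3) and 72.2-fold higher (54.1 to 98.4). UQCRC2, a core subunit of the same complex, went from 2.46 and 3.73 to 159.9 and 133. DLD, the lipoamide dehydrogenase shared by the pyruvate and oxoglutarate dehydrogenase complexes, went from 6.94 and 6.10 to 287 and 246, 41.4-fold higher (36.7 to 46.8) and 40.3-fold higher (36.01 to 45.3). Its rise in IV-D embryos, 41.7-fold higher (37.9 to 45.9), had an interval that overlapped both. MRPL30, of the large mitochondrial ribosomal subunit, went from 2.20 and 4.01 to 161 and 192, and DNAJC19, a co-chaperone of mitochondrial import, from 8.37 and 4.96 to 283 and 308. MTFP1, an inner membrane protein that promotes mitochondrial fission, had 1 and 0 fragments at the 4-cell stage and FPKM values of 47.3 and 53.5 at the 8-cell stage.

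Translation and RNA processing supplied others. RPL23, of the large cytosolic ribosomal subunit, went from 8.50 and 20.5 to 574 and 767, 67.6-fold higher (59.1 to 77.6) and 37.3-fold higher (34.6 to 40.4). LSM5, of the ring that binds U6 RNA, went from 7.10 and 9.20 to 339.8 and 347. GEMIN2, of the complex that assembles spliceosomal RNPs, went from 3.50 and 2.56 to 133 and 111. PPA1, the cytosolic pyrophosphatase, went from 4.77 and 13.3 to 364 and 516, although the oocyte library of the NT-D series held it at 108, so that its 4-cell level was the low point. MIX23 and CMSS1 went from 24.4 and 29.6 to 977 and 1054 and from 8.68 and 8.45 to 315 and 292.

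CD58 and EIF1AY complete the first 15 risers. CD58, an adhesion molecule of the cell surface, went from 0.273 and 0.214 in clones to 42.8 and 47.8, while in IV-D embryos it went from 0.689 to 2.46, 3.57-fold higher (1.64 to 8.87). The IV-D 8-cell library thus lay far below both clone libraries. EIF1AY, a translation initiation factor on chromosome Y, had 1 and 7 fragments at the 4-cell stage and FPKM values of 36.3 and 41.3 at the 8-cell stage, and it went from 0.0405 to 13.8 in IV-D embryos, which were pooled from both sexes without sexing. Its X-linked copy is nearly identical, so the split of reads between the copies is uncertain.

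**Figure D2:**
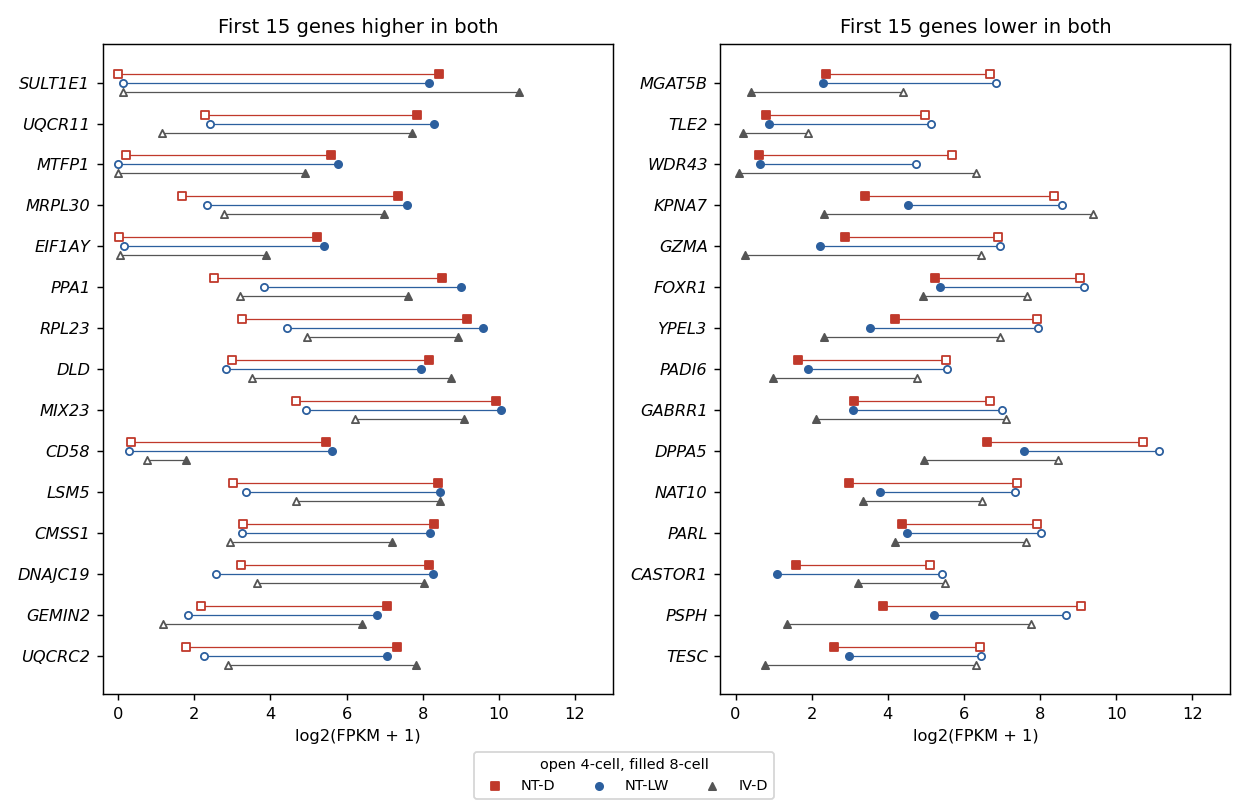
Rows are the first 15 genes with a symbol that rose (left) and fell (right) in both clone groups, ranked by the smaller of the 2 clone differences, and the horizontal axis is log2(FPKM + 1), with open marks for 4-cell and filled marks for 8-cell libraries of NT-D (squares), NT-LW (circles) and IV-D embryos (triangles), 1 library each. Every clone 8-cell mark lies to the right of both clone 4-cell marks among the risers and to the left among the fallers, and CD58 is the riser whose IV-D line is shortest.

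Several falls were of messages known from the oocyte. KPNA7, an importin alpha of oocytes and early embryos, went from 331 and 381 to 9.64 and 22.3, 34.4-fold lower (31.1 to 38.1) and 17.1-fold lower (15.9 to 18.4). In IV-D embryos it was 168-fold lower (145 to 197), beyond the intervals of both clone groups. PADI6, of the subcortical maternal complex, went from 45.4 and 45.7 to 2.13 and 2.74. DPPA5, an RNA-binding protein of oocytes and pluripotent cells, went from 1661 and 2241 to 96.2 and 189.5.

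MGAT5B, a glycosyltransferase that branches sugar chains, was the first faller, from 101.2 and 113 to 4.21 and 3.90, 24.1-fold lower (21.5 to 27.04) and 28.9-fold lower (25.4 to 32.9). TLE2, a corepressor of the Groucho family, went from 30.7 and 33.8 to 0.732 and 0.838, and FOXR1, a forkhead factor, from 525 and 571 to 36.8 and 40.5. Both were less abundant in the IV-D 4-cell library, at 2.76 and 200.3. GZMA, a serine protease, went from 117 and 122 to 6.39 and 3.61, and YPEL3 from 241 and 244 to 17.3 and 10.6. Each of these 5 genes was present in the oocyte library, at FPKM values of 35.1 for TLE2 to 593 for FOXR1.

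Enzymes and sensors of metabolism and nucleolar proteins were also among the first 15 falls. PSPH, the last enzyme of serine synthesis, went from 536 and 411 to 13.7 and 36.1, 39.1-fold lower (35.3 to 43.4) in NT-D against 11.4-fold lower (10.6 to 12.2) in NT-LW. CASTOR1, the arginine sensor of mTORC1, went from 33.2 and 42.2 to 2.01 and 1.12. WDR43 and NAT10 act in the maturation of ribosomal RNA, and both fell, WDR43 from 50.5 and 25.7 to 0.532 and 0.549 and NAT10 from 166 and 159.8 to 6.89 and 12.97. PARL, a protease of the inner mitochondrial membrane, went from 239 and 258 to 19.7 and 21.6, GABRR1, a GABA receptor subunit, from 101.04 and 127 to 7.64 and 7.42, and TESC, a calcium-binding protein, from 84.6 and 85.7 to 5.03 and 6.89.

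The promoter windows of 6 members are shown for the motifs whose shares differed most between risers and fallers, as a ratio, of the 7 that were searched. Each window runs from 250 bases before to 50 bases after the gene start of RefSeq on Sscrofa11.1, 5′ to 3′ on the strand of the gene. Capitals mark the ETS core CCGGAAG and the NRF1 core GCGCATG on either strand, and KPNA7, a faller, is shown as a window with neither. The windows are examples and do not show how common a motif is. Other named fallers, such as FOXR1, BTG4, CNOT7 and MED14, held an ETS core.
GEMIN2, chr1:169675902-169676201, plus strand: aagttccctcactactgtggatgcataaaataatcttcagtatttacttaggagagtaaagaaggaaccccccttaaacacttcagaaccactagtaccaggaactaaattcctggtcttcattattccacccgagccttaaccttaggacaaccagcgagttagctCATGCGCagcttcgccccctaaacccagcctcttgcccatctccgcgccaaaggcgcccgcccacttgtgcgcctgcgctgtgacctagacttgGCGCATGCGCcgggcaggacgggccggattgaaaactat
DLD, chr9:107641879-107642178, plus strand: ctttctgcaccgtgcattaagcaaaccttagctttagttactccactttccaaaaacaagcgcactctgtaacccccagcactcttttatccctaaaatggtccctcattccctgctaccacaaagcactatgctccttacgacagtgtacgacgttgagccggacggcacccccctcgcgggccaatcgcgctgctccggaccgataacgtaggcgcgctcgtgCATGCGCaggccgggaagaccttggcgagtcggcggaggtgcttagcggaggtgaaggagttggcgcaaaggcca
EIF1AY, chrY:9704440-9704739, minus strand: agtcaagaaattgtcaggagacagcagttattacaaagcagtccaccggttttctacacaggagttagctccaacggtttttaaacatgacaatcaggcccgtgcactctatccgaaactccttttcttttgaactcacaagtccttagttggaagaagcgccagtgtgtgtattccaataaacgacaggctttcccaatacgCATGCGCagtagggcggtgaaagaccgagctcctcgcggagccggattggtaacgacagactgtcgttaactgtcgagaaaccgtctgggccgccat
PSMC6, chr1:182328820-182329119, plus strand: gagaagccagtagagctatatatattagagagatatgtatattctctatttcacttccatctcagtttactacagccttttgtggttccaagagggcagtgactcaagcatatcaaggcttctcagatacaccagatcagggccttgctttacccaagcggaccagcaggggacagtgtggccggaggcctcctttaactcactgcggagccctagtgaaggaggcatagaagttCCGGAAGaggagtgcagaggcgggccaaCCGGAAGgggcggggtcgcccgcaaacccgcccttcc
GTF2H3, chr14:29355416-29355715, minus strand: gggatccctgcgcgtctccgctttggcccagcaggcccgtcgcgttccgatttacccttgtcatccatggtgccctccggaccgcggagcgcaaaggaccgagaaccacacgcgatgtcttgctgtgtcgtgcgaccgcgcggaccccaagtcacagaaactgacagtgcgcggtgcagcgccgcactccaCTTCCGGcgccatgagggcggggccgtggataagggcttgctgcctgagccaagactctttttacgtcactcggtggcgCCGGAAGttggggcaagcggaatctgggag
KPNA7, chr3:6201233-6201532, minus strand: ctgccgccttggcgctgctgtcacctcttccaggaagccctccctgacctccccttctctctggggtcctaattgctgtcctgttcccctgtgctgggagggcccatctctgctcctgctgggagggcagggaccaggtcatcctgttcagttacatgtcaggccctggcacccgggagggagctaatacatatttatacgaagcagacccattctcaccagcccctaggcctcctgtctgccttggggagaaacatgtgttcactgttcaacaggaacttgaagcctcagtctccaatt

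Of the 1454 risers with a promoter window 342 (23.5%) held the ETS core, against 119 of 1324 fallers (8.99%) and 1139 of 6840 genes of the table (16.7%). The NRF1 core was in 135 risers (9.28%), 48 fallers (3.63%) and 423 genes of the table (6.18%). The GC box GGGCGG was in 63.6% of risers, 55.2% of fallers and 63.2% of the table, and the E-box CACGTG, which reads alike on both strands, in 11.3%, 8.16% and 10.2%. The TATA box TATAAA was in 8.39%, 10.4% and 8.38%, CCAAT in 38.9%, 36.6% and 37.8%, and the TEAD core GGAATG in 11.97%, 11.5% and 10.98%. The ETS core and the NRF1 core were thus each in over 2 times as large a share of risers as of fallers. Outside all gene lists described here 22.1% of 1251 risers held the ETS core, against 16.8% of all 5535 compared genes outside them. Among the 26 named genes of the first 15 each way with a window, 0 of 12 risers and 1 of 14 fallers (FOXR1) held the ETS core, and 3 risers and 0 fallers the NRF1 core. A match is a run of letters, not a bound site.

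Gene size differed as well. From first to last exon the median riser spanned 24093.5 bases, the median faller 70887 and the median gene, taken over the whole table, 37392. Of the risers 43.8% spanned less than 20 kb, against 18.4% of the fallers. Median exon numbers were 8 and 13. Outside all lists the median riser still spanned 26256 bases, against 41520.5 for all compared genes there. Span and exon number were added after the data were seen. The exonic length used for FPKM, which is 2652.5 bases for the median riser, 3382.5 for the median faller and 3359 for the table, differed less.

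**Figure D3:**
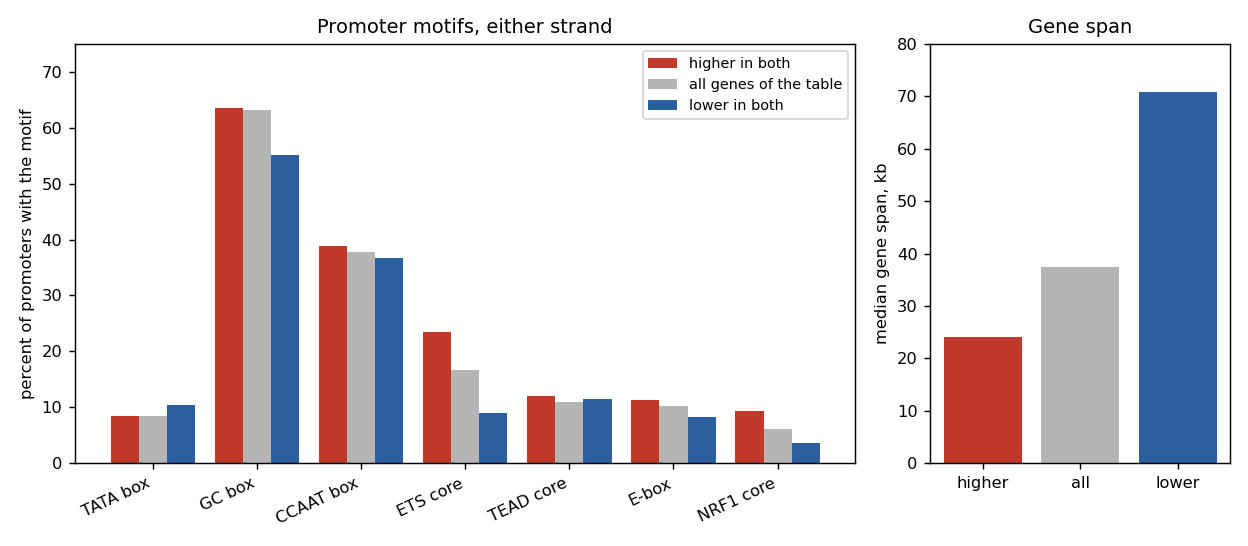
Left, percent of promoter windows holding each motif on either strand for genes higher in both clone groups (red), all genes of the table (grey) and genes lower in both (blue). Right, median gene span in kilobases for the same sets. The ETS core was in 23.5% of risers and 8.99% of fallers, and the median span was 24093.5 bases in risers and 70887 in fallers.

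The protein synthesis machinery had the highest share of risers of the 21 lists. Of 40 compared cytosolic ribosomal protein genes 36 rose in both clone groups and 0 fell, where 24.6% and 22.5% of all compared genes did. Their median log2 differences were 2.75 (NT-D) and 2.46 (NT-LW), beside 0.13 and 0.05 for all compared genes. Their summed FPKM went from 3204 to 17877 in NT-D, from 4435 to 21505 in NT-LW and from 3669 to 24044 in IV-D embryos. After RPL23 the largest rise was that of RPS12, of the small subunit, from 13.8 and 10.1 to 189.9 and 255. RPLP0, a stalk protein chosen here after its values were seen, did not take part in clones: it stood at 470.2 and 485 at the 4-cell and 448 and 410.4 at the 8-cell stage, and went from 96.1 to 1160.4 in IV-D embryos. Ribosomal protein genes have many processed copies in the genome, so the reads given to each are uncertain.

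Of 61 genes for ribosome assembly and the nucleolus 22 rose and 3 fell in both clone groups, with medians of 1.08 and 0.73. GNL3, the nucleolar GTPase nucleostemin, went from 4.31 and 3.18 to 89.2 and 78.6. PNO1, an assembly factor of the small subunit, went from 2.16 and 1.88 to 59.5 and 40.2 in clones, but its IV-D 4-cell library already held 38.01, and the 8-cell library 84.2.

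Respiration moved with it. Of 53 nuclear genes of oxidative phosphorylation 47 rose in both clone groups, with medians of 2.48 in NT-D and 2.33 in NT-LW and of 3.19 in IV-D embryos. The summed FPKM was 3382 and 4147 in the clone 4-cell libraries and 13217 and 15412 in the 8-cell libraries. The largest rises were those of UQCR11 and UQCRC2, and 1 gene fell: COX8A, a small subunit of cytochrome c oxidase, from 1454 and 1666 to 547 and 706. In IV-D embryos it went from 568 to 806 and was not called.

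Protein breakdown and carbon metabolism followed in smaller shares. Of 32 proteasome genes 17 rose and 1 fell. PSMC6, an ATPase of the regulatory particle, went from 9.89 and 15.3 to 254 and 292, 25.6-fold higher (23.1 to 28.6) and 19.1-fold higher (17.7 to 20.6), PSMA4, of the core particle, from 27.8 and 23.02 to 265 and 255, and PSMD3, of the lid, fell from 5.69 and 3.99 to 1.77 and 1.35. Of 15 genes of glycolysis and glucose uptake 4 rose and 0 fell, a share (26.7%) near that of all genes. PDHB, of pyruvate dehydrogenase, went from 1.69 and 1.10 to 22.01 and 17.8, and PGK1, phosphoglycerate kinase, from 9.11 and 8.44 to 44.4 and 40.5.

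Sterol synthesis rose for the greater part in clones and was mixed in IV-D embryos. Of 16 compared genes 9 rose in both clone groups and 1 fell, with medians of 1.24 and 1.36, while in IV-D embryos 5 rose, 3 fell and the median was 0.56. SC5D, a late desaturase of the pathway, went from 4.46 and 1.72 to 90.1 and 79.7 in clones and from 4.78 to 67.03 in IV-D embryos, and IDI1, the isopentenyl diphosphate isomerase, from 9.43 and 6.90 to 119.5 and 132 and from 6.49 to 49.9. FDFT1, squalene synthase, was the gene that fell, from 236 and 224 to 56.6 and 76.9, and from 231 to 11.5 in IV-D embryos. SQLE, squalene epoxidase, chosen after its values were seen, shows the contrast, going from 11.9 and 9.69 to 29.4 and 24.7 in clones and from 11.09 to 6.198 in IV-D embryos. The difference between the groups was not tested.

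Transcription and splicing rose in a minority of their genes. Of 57 genes of RNA polymerase II and the general factors 21 rose (36.8%) and 3 fell, and of 51 splicing factors 18 rose (35.3%) and 2 fell. GTF2H5 and GTF2H3, both of TFIIH, went from 17.4 and 14.9 to 209 and 203 and from 6.37 and 10.1 to 90.4 and 91.5. MED14 and MED1, of Mediator, fell from 35.8 and 36.2 to 7.63 and 6.56 and from 15.4 and 20.4 to 4.09 and 6.195. After LSM5 the largest rise among splicing factors was that of LSM6, of the same ring, from 3.62 and 4.82 to 30.99 and 43.4, and the falls were PRPF3, of the tri-snRNP, from 44.2 and 43.4 to 19.04 and 16.9, and CDC5L, of the PRP19 complex, from 88.9 and 78.999 to 35.5 and 38.9. In IV-D embryos the summed FPKM of the splicing factors was already 6819 at the 4-cell stage, against 3794 and 4613 in clones, and 6342, 6455 and 6584 at the 8-cell stage. SRSF3, an SR protein chosen after its values were seen, shows it: 52.7 and 99.8 at the 4-cell and 484 and 420.2 at the 8-cell stage of clones, and 396 to 402 in IV-D embryos.

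**Figure D4:**
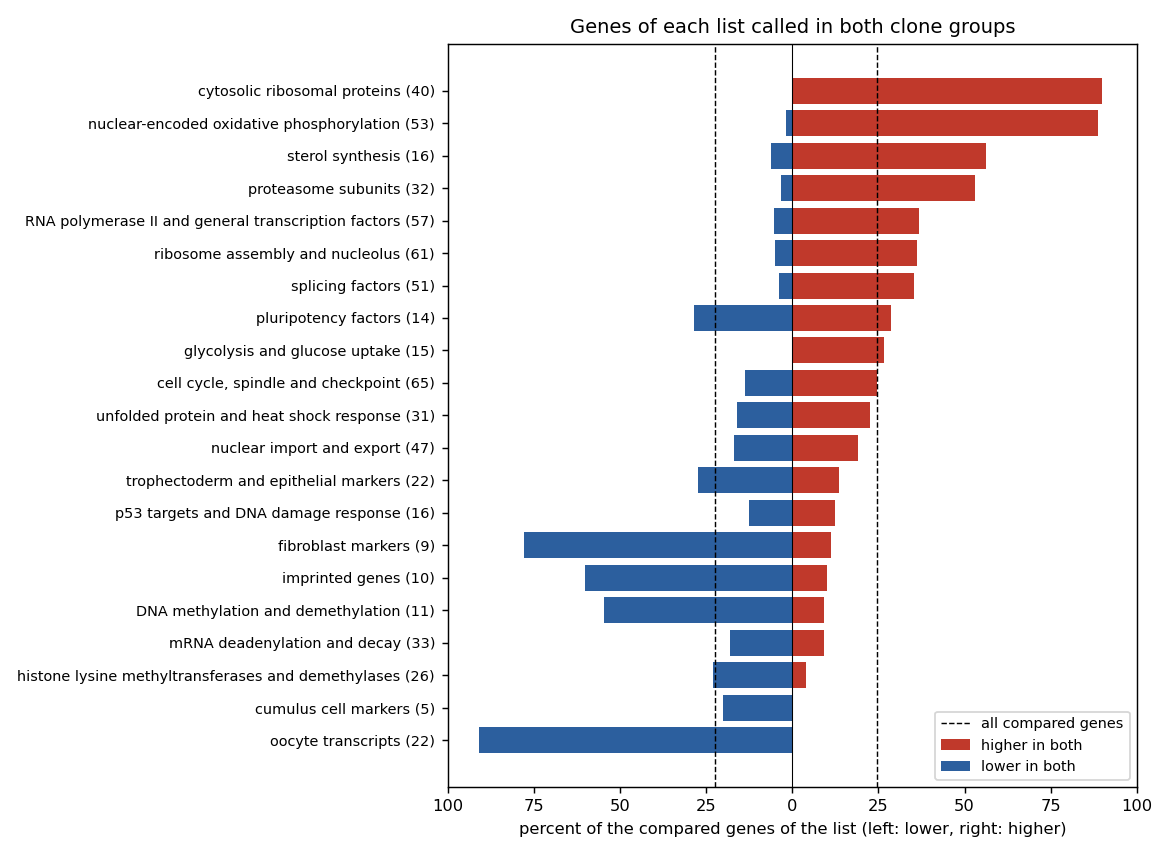
Bars give, for each of 21 gene lists (number of compared genes in brackets), the percent of its compared genes that rose in both clone groups (red, right) and fell in both (blue, left). Dashed lines mark 24.6% and 22.5%, the shares over all compared genes. Ribosomal protein and respiratory genes reach furthest right and oocyte transcripts furthest left.

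Oocyte transcripts had the highest share of fallers of the 21 lists. Of 22 compared genes 20 fell in both clone groups and 0 rose, with medians of -3.01 in NT-D, -2.60 in NT-LW and -3.84 in IV-D embryos, where 21 fell. KPNA7 and PADI6 led the list. Summed FPKM was 865 and 1186 in the clone 8-cell libraries and 167 in the IV-D library, from 7369, 7045 and 5316 at the 4-cell stage. The clone 8-cell libraries thus held more of these messages than the IV-D library, and the clone 4-cell libraries also held more.

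The factors that remove maternal messages went both ways. Of 33 compared genes of deadenylation and decay 3 rose and 6 fell, both below the shares of all genes. BTG4, the adaptor that brings the deadenylase to maternal messages, went from 1199 and 782 to 108 and 289.8 in NT-D and NT-LW, 11.12-fold lower (10.8 to 11.5) and 2.70-fold lower (2.64 to 2.76), and 69.3-fold lower (64.6 to 74.3) in IV-D embryos. The 3 intervals do not overlap. CNOT7, a deadenylase, fell from 299 and 219 to 58.96 and 59.3, while CNOT2, of the same CCR4-NOT complex, rose from 44.98 and 53.5 to 106 and 116 and PUM2, an RNA-binding repressor, from 2.79 and 4.99 to 20.4 and 13.9.

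Few genes rose in the lists for DNA methylation and for histone lysine methylation. Of 11 compared genes of DNA methylation and demethylation 6 fell (54.5%) and 1 rose (9.09%), beside 22.5% and 24.6% of all compared genes. DNMT1, the maintenance methyltransferase, was the most abundant, going from 2083 and 1702 to 88.7 and 240.5, 23.5-fold lower (23.03 to 23.96) in NT-D and 7.08-fold lower (6.98 to 7.17) in NT-LW, and from 2162 to 53.6 in IV-D embryos. ZBTB33, the methyl-binding protein Kaiso, fell from 71.1 and 69.2 to 6.201 and 8.68, and MBD4, a glycosylase that repairs deaminated methylcytosine, rose from 3.28 and 1.999 to 17.9 and 13.3. Of 26 histone lysine methyltransferases and demethylases 6 fell (23.1%) and 1 rose, a share of falls near that of all compared genes. NSD3 fell from 50.5 and 46.5 to 4.58 and 11.5 and SETDB1 from 9.22 and 8.04 to 1.69 and 2.16, and RIOX2 rose from 3.91 and 5.09 to 32.3 and 25.6. Of 10 imprinted genes 6 fell, led by MEST (23.3 and 26.05 to 1.27 and 2.28) and SGCE (12.8 and 13.6 to 1.57 and 2.23), and 1 rose, UBE3A, from 7.61 and 14.3 to 46.6 and 41.6.

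Of 14 compared pluripotency factors 4 rose and 4 fell, 28.6% each way and near the shares of all genes. KLF4 went from 2.27 and 17.7 to 84.6 and 79.3, so the 2 groups met at the 8-cell stage from unlike 4-cell levels, 37.2-fold higher (30.7 to 45.6) in NT-D and 4.48-fold higher (4.19 to 4.80) in NT-LW, and the IV-D libraries went from 34.6 to 61.3. DPPA2 rose from 22.4 and 43.1 to 241 and 175. OTX2 fell from 179 and 147 to 18.7 and 16.8, as did DPPA5. Of 22 trophectoderm and epithelial markers 3 rose (13.6%) and 6 fell (27.3%). GJB5, a gap junction connexin, rose from 0.0810 and 0 to 5.23 and 2.45, and reached 57.5 in the IV-D 8-cell library. OCLN, the tight junction protein occludin, fell from 30.6 and 24.6 to 1.64 and 2.96, and ESRP1, a splicing regulator of epithelia, from 24.9 and 28.5 to 6.93 and 7.17.

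Cell cycle genes moved in both directions, 16 of 65 rising (24.6%) and 9 falling (13.8%), so that the share of rises was that of all genes. CDK1, the mitotic kinase, went from 123 and 109.7 to 987 and 669, and ANAPC10, of the anaphase-promoting complex, from 3.65 and 3.14 to 46.8 and 47.8. WEE2, the oocyte form of the kinase that holds CDK1 inactive, fell from 243 and 258 to 34.3 and 49.5, and BUB1B, a checkpoint kinase, from 83.1 and 82.1 to 14.5 and 22.1. Nuclear transport had 9 rises (19.1%) and 8 falls (17.0%) in 47 genes, both below the shares of all genes. IPO5 and KPNA5 rose from 4.07 and 8.54 to 39.5 and 37.04 and from 2.30 and 1.77 to 8.35 and 10.4, and NUP214, of the nuclear pore, fell from 77.8 and 69.1 to 8.21 and 13.8, next to KPNA7.

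Of 31 genes of the unfolded protein and heat shock responses 7 rose (22.6%) and 5 fell (16.1%), neither share above that of all genes. HSPD1, the mitochondrial chaperonin, went from 18.97 and 24.5 to 197 and 201 and HSF2, a heat shock factor, from 3.51 and 1.12 to 34.4 and 41.5. HSPB1 fell from 40.7 and 39.3 to 5.98 and 3.63 and ATF6 from 71.1 and 55.7 to 11.4 and 18.2. Of 16 p53 targets and damage response genes 2 rose and 2 fell, 12.5% each way. MDM2, the ligase that degrades p53, went from 0.946 and 0.340 to 9.20 and 18.9, and EI24 from 0.918 and 1.88 to 4.36 and 5.799. CCNG2 fell from 32.97 and 25.4 to 2.08 and 2.09 and RRM2B, a ribonucleotide reductase subunit, from 199 and 192 to 14.04 and 27.7.

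Most markers of the donor cells went down in clones. Of 9 compared fibroblast markers 7 fell in both clone groups, 1 rose and 1, VIM, passed the limit in NT-D alone. COL1A2, a chain of type I collagen, went from 14.5 and 15.1 to 1.83 and 1.90, while the IV-D libraries went from 1.02 to 0.0206, and ACTA2, smooth muscle actin, from 20.4 and 25.9 to 3.97 and 1.78, against 0.800 to 0 in IV-D. S100A4, a calcium-binding protein of the same list named here after its values were seen, went from 95.3 and 114 to 23.05 and 18.7 and was at 0 in both IV-D libraries. The marker that rose was LGALS1, galectin 1, which went in clones from 4.21 and 9.93 to 85.4 and 96.8 and in IV-D embryos from 11.2 to 144. Of 5 compared cumulus markers 1 fell: HAS2, hyaluronan synthase, from 5.21 and 18.8 to 0 and 0.921, with 0 in the NT-D oocyte library. HAS2 was at 0.0497 and 0 in the clone 2-cell libraries. In IV-D embryos it was at 0.0294, 2.38 and 0.241 at the 2-cell, 4-cell and 8-cell stages. In all 3 groups its 4-cell level was thus above both the 2-cell and the 8-cell level. In clones the summed FPKM of the 12 fibroblast markers in the table went from 158 and 186 to 118 and 128. In IV-D embryos this sum went from 19.9 to 146. LGALS1 alone held most of each 8-cell sum: 85.4 in NT-D, 96.8 in NT-LW and 144 in IV-D embryos. These sums therefore do not show how far the other markers fell. The summed FPKM of the 7 cumulus markers was 80.9 and 83.5 in the clone 4-cell libraries and 85.7 in the IV-D 4-cell library. Fewer cells of a type and less RNA per cell cannot be told apart in pooled embryos, and the part of RNA from other cells in these falls was not tested.

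Some members went from nearly absent to present. By FPKM values below 1 in both clone 4-cell libraries and at least 5 in both 8-cell libraries, limits added after the data were seen, 83 risers were onset genes, 68 of them also below 1 in the oocyte library. Beside SULT1E1, MTFP1, CD58 and EIF1AY, the highest by their lower 8-cell value were NDUFA5, a complex I subunit (41.01 and 53.1), and TMA16 (40.4 and 33.5). ARG1, arginase, reached 13.1 and 14.3 in clones and 309 in IV-D embryos, and XBP1, a factor of the unfolded protein response, 9.76 and 11.7 and 20.6. In the IV-D libraries 51 of the 83 were below 1 at the 4-cell and 67 at least 5 at the 8-cell stage. The reverse limits gave 67 cleared genes, 64 of them at 1 FPKM or more in the oocyte library. TLE2 and WDR43 were the most abundant, followed by AZIN2 (13.97 and 14.1 at the 4-cell stage) and DNAJB13 (13.8 and 11.4). Of the 67, 60 were below 1 in the IV-D 8-cell library too, but only 26 had at least 5 in the IV-D 4-cell library.

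Most members took the same step in IV-D embryos, whose libraries had no part in choosing them. Of the 1886 risers 1499 (79.5%) rose there, where 35.0% of 7995 genes did, and of the 1729 fallers 1403 (81.1%) fell, against 28.1%. The opposite call was made for 12 risers and 27 fallers. Of the 387 risers that did not rise in IV-D embryos, 80 were already over 1 log2 unit higher in the IV-D 4-cell library than in both clone libraries, 102 were over 1 unit lower at the 8-cell stage, 8 of these were both, and 213 neither. Of the 326 fallers that did not fall there, 108 were already lower at the 4-cell stage, 53 remained higher at the 8-cell stage, 9 of these were both and 174 neither. For most of these genes neither stage alone set the IV-D library more than 1 unit apart from both clone libraries.

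The fallers with the opposite IV-D step included HORMAD1, a protein of meiotic chromosome axes, which went from 26.6 and 20.2 to 4.46 and 4.59 in clones and from 34.4 to 81.9 in IV-D embryos. AP2M1, the mu subunit of the AP2 clathrin adaptor, went from 44.1 and 41.8 to 9.76 and 10.5 and from 11.4 to 30.5, and IL6ST, the shared receptor chain gp130, from 23.4 and 28.1 to 7.39 and 9.56 and from 18.4 to 44.4. For each of these the clone libraries lay below the IV-D library at the 8-cell stage. CPO, a carboxypeptidase, went from 12.002 and 10.4 to 0.654 and 0.402 in clones and from 0.173 to 1.68 in IV-D embryos. RBPMS, an RNA-binding protein, went from 11.2 and 7.92 to 2.36 and 2.52 and from 6.68 to 21.2.

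Among the risers with the opposite IV-D step, TRAPPC6B, of a vesicle tethering complex, went from 18.3 and 29.04 to 77.2 and 70.6 in clones and from 125 to 57.4 in IV-D embryos, and TMEM68 from 5.63 and 13.5 to 35.3 and 35.2 and from 24.1 to 5.49. For both the IV-D 4-cell library lay above the clone 4-cell libraries. C12orf75 went from 4.73 and 8.11 to 41.7 and 34.2 and from 22.8 to 10.2, C2orf74 from 3.64 and 4.59 to 20.4 and 26.5 and from 4.87 to 1.85, and TCEAL9 from 2.62 and 2.16 to 6.74 and 27.4 and from 3.94 to 0.589.

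The levels of the earlier and later stages set the step in its course. The median riser stood between 2.28 and 2.73 on the log2(FPKM + 1) scale in the clone libraries from the 1-cell to the 4-cell stage, at 4.97 and 4.93 in the NT-D and NT-LW 8-cell libraries and at 5.02 and 5.36 in morulae. The median faller stood at 1.87 and 2.15 at the 8-cell stage and then parted, at 2.69 in NT-D and 1.58 in NT-LW morulae. In IT, the blastocyst part with inner cell mass and trophectoderm, it was 0.94 and 0.96, and in TE, trophectoderm alone, 0.63 and 0.73. Most fallers were detected in the oocyte: 95.1% reached 1 FPKM in the NT-D oocyte library, against 74.5% of risers and 84.4% of compared genes.

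**Figure D5:**
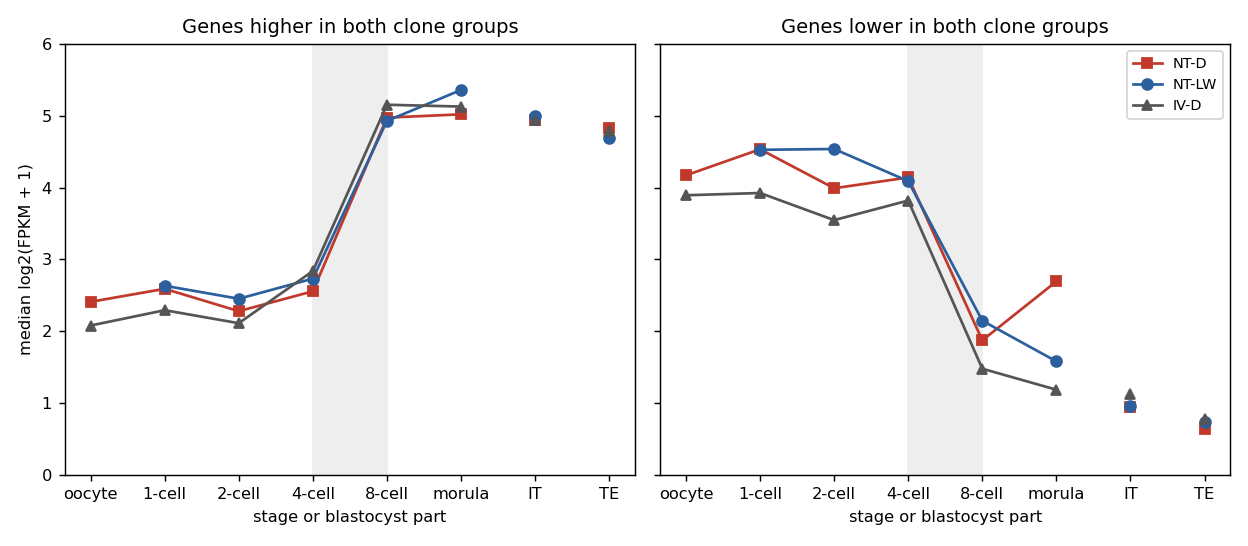
Median log2(FPKM + 1) of the 1886 genes higher in both clone groups (left) and the 1729 lower in both (right) in each library of NT-D (squares), NT-LW (circles) and IV-D (triangles), with the step shaded and the 2 blastocyst parts as single marks. Medians change by under 1 unit up to the 4-cell stage and by more than 1 unit at the step in all 3 groups, and the NT-D morula lies above the other 2 morulae in the right panel.

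The morula libraries share the 8-cell libraries with the step, so calls between them are given side by side only. From the 8-cell library to the morula, 31.6% of 7968 genes rose and 12.0% fell in NT-D, and 22.4% of 7708 rose and 12.4% fell in NT-LW. Of the 1886 risers 1435 in NT-D and 1703 in NT-LW were no more than 2-fold below the 8-cell level in morulae. Of the 1729 fallers 1143 and 1588 were no more than 2-fold above it. Among risers 23.9% in NT-D and 9.70% in NT-LW were called lower, beside 12.0% and 12.4% of all compared genes. Among fallers 33.9% and 8.16% were called higher, beside 31.6% and 22.4%. KPNA7 was at 48.4 in NT-D and 2.06 in NT-LW morulae, and PADI6 at 10.03 and 0.576.

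The 8 genes with opposite steps rose in NT-D and fell in NT-LW in 7 cases. KLF17, a Kruppel-like factor, had 0 and 6.23 in the NT-D libraries, 10.7 and 3.56 in the NT-LW libraries and 96.2 and 16.9 in the IV-D libraries. INTS6L, of the Integrator complex family, went from 1.36 to 4.91 in NT-D and from 11.07 to 2.82 in NT-LW, and KLF10 from 4.54 to 10.3 and from 14.995 to 6.68. These 3, the only ones with a symbol, were chosen after their values were seen. For all 3 the NT-D 4-cell library held the lowest 4-cell value of the 3 groups.

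Of the chromosomes, chromosome 9 had a high share of fallers: 116 of its 340 compared genes with a RefSeq position fell in both clone groups (34.1%), against 21.5% over all chromosomes, and in IV-D embryos 34.4% fell there against 27.2%. In IV-D embryos the share was higher on chromosome 8, at 37.8%, where 26.97% fell in both clone groups. FOXR1 is on chromosome 9.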

How the data were processed

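Gene expression was measured by RNA-seq of pooled oocytes, embryos or embryo parts, in 23 libraries with 1 library per condition. Per the submitters' processing notes and the study's methods, RNA was amplified with the SMART-Seq v4 kit, which does not mark strand, so that overlapping antisense genes cannot be told apart. Paired-end reads were mapped with HISAT2 2.0.4 to Sscrofa11.1 and counted with HTSeq 0.9.1 by the authors. The deposited table gives 8603 genes in FPKM, as made by the authors from these reads. How the genes of the table were chosen is not given in the sources used here. All of its columns were assigned to a sample.

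The steps were computed on log2(FPKM + 1) in Python 3.11.15 (pandas 2.3.3 and numpy 2.4.6, with binomial intervals from scipy 1.17.1 and sequence access by pysam 0.24.0). A gene was compared where 1 FPKM was reached in either library, and called where the difference was over 1. With 1 library per group no test between conditions was run. Fragments were recovered from the FPKM steps, and the recovery and the rule were tested on simulated data. The fragments on the table's genes were 12478220 in the shallowest library of the step. Genes named by rule were ranked by the smaller of the 2 clone differences: the first 15 each way that had a symbol and reached 10 FPKM in a clone library, the first 5 each way of such genes with an opposite IV-D step, the first 3 of each kind with opposite clone steps (with or without a symbol), the first 2 each way of each of 21 lists, and the neighbours of the limit. Any other gene was chosen after its values were seen, and 1 gene that the rule picked is not reported here. The members, the lists and the rules were chosen with earlier results of these data known. Position, span and promoter windows of 6853 genes with 1 RefSeq position came from the RefSeq annotation and sequence of Sscrofa11.1, matched by gene. Alternatives were another pseudocount (0.1), another minimum FPKM value (5 or none), a log2 limit of 2, rescaling of each library to a sum of 1000000 over the table, median-ratio size factors over the clone libraries, and an exact binomial test between 2 libraries (adjusted p limit 0.005).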

Additional observations from a re-analysis of the deposited data

Results flagged for a closer look

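The genes here were picked out because their step went one way in 1 group and the other way in another. Each value is a difference of log2(FPKM + 1) between the 8-cell and the 4-cell library, and with 1 library per condition none of the differences between groups was tested.

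Among genes higher in both clone groups, C2orf74 differed by 2.21 in NT-D and 2.30 in NT-LW and by -1.04 in IV-D embryos. C12orf75 differed by 2.90, 1.95 and -1.08 in the same order, TMEM68 by 2.45, 1.32 and -1.95, and TRAPPC6B, of a vesicle tethering complex, by 2.02, 1.25 and -1.11. TCEAL9, with 1.10, 3.17 and -1.64, was the least alike between the clone groups.

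Among genes lower in both, CPO, a carboxypeptidase, differed by -2.98 in NT-D, -3.02 in NT-LW and 1.19 in IV-D embryos. HORMAD1, of meiotic chromosome axes, differed by -2.34, -1.92 and 1.23. AP2M1, of the clathrin adaptor AP2, differed by -2.07, -1.90 and 1.35, IL6ST, the receptor chain gp130, by -1.54, -1.47 and 1.23, and RBPMS, an RNA-binding protein, by -1.86, -1.34 and 1.53.

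The 2 clone groups went opposite ways for 8 genes in all. KLF17, INTS6L and KLF10 are described above, and the genes picked by rule carry no symbol. ENSSSCG00000035894 differed by 2.31 in NT-D and -3.23 in NT-LW, ENSSSCG00000033480 by 1.51 and -1.43, and ENSSSCG00000014929 by 1.36 and -2.53. ENSSSCG00000033007 was the gene with the other order, -1.22 in NT-D and 2.04 in NT-LW.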

How the results depend on the processing

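The genes higher in both clone groups numbered 1886 and those lower in both 1729. With a log2 limit of 2 these counts were 734 and 515, those of NT-D alone 1101 higher and 921 lower, those of NT-LW alone 919 and 637, and 1 gene went opposite ways. The 8 opposite genes became 26 with a pseudocount of 0.1, 19 with each library rescaled to the same sum over the table, and 41 with the exact binomial test, which compares libraries and not conditions; the cause was not tested. Under the other alternatives the counts in both groups stayed within 1.5 times, from 1635 to 2331 higher and from 1381 to 2274 lower, but fallers outnumbered risers under rescaling (1686 higher and 2274 lower, a share of risers of 42.6% against 52.2%) and median-ratio factors (1785 and 1825). Rescaling, which divides by the sum of FPKM, moved the median of all compared genes (log2) from 0.13 to -0.13 in NT-D and from 0.05 to -0.19 in NT-LW. Table genes took 83.0% and 84.8% of fragments in the NT-D and NT-LW 4-cell libraries. In the 8-cell libraries they took 94.7% and 94.5%. How much of the shift comes from this share was not tested. Rescaling kept 87.4% of the risers and 100% of the fallers. Median-ratio factors kept 94.6% and 100%. Of 42 list medians, 42 under median-ratio factors, 41 under rescaling and 40 with the smaller pseudocount moved by under 0.5. Of 212 values of named genes, 36, 168 and 106 left their counting intervals under these. With 4-fold in place of 2-fold, 1769 risers in NT-D and 1865 in NT-LW were no more than that below the 8-cell level in morulae. For fallers, 1573 and 1678 were no more than 4-fold above it. A member had to change by over 1 log2 unit only, so genes counted at 4-fold may be back at their 4-cell level. With 1 library per condition, leaving out a replicate is not possible. A fit of stage with the groups as blocks was not run, since it would take groups of different origin as replicates.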

Other observations

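Gene families read from symbol prefixes, chosen after the data were seen, give a further view of the step. Of 35 compared genes for the large mitochondrial ribosomal subunit (MRPL) 25 rose in both clone groups and 0 fell, and of 23 for the small subunit (MRPS) 16 rose and 0 fell, where 24.6% of all compared genes rose and 22.5% fell. The median log2 differences of MRPL genes were 2.01 in NT-D, 1.86 in NT-LW and 2.01 in IV-D embryos. Of 43 translation initiation factor genes (EIF) 22 rose and 3 fell. Of 25 genes with the prefix UBE, ubiquitin-conjugating enzymes and others such as UBE3A, 9 rose and 0 fell. Zinc finger genes (ZNF) had 27 rises (25.5%) and 14 falls (13.2%) in 106, and solute carriers (SLC) 26 (23.0%) and 34 (30.1%) in 113. Both had shares of rises near that of all genes. The share of falls was below that of all genes for ZNF and above it for SLC.

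Of 18 cilia and flagella associated genes (CFAP) 2 rose and 7 fell (38.9%). Of 26 centrosomal genes (CEP) 3 rose and 7 fell (26.9%), of 21 kinesins (KIF) 3 rose and 5 fell (23.8%), and of 32 deubiquitinases (USP) 3 rose and 9 fell (28.1%), shares of falls nearer to the 22.5% of all compared genes.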
